A study of Mus musculus with 18 samples.

Results

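The comparison described is that of RNA from ES3 cells, mouse embryonic stem (ES) cells of C57BL/6 origin, with and without the gene Trim28. The knockout library came from cells collected 4 days after a Cre recombinase inducible by 4-hydroxytamoxifen (4-OHT) had been activated, and the wild-type library from cells kept in culture for 4 days. The labels do not say whether the wild-type cells received 4-OHT or carried the Cre. Both were grown on gelatin in medium with serum and leukaemia inhibitory factor (LIF), and duplicate cultures were pooled before RNA extraction, so each condition is 1 library with no measure of spread. The deposited table heads its columns only knockout and wild type; ES3 is the one ES pair in the series that carries both labels, and the columns were taken to be that pair. It gives RPKM, reads per transcript scaled by transcript length and library size. Of 17818 gene symbols, 12024 reached 1 RPKM in either library and are called measured here. They were selected by level alone, over all chromosomes and gene types. Fibroblasts with and without Trim28, given below for reference, also have 1 library per condition. Those libraries are of day 5, while the ES3 libraries are of day 4, so cell type and day differ together.

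TRIM28, also called KAP1, is a corepressor that KRAB zinc finger proteins bring to DNA. It recruits the methyltransferase SETDB1, which places the repressive histone mark H3K9me3, and in ES cells it is best known for silencing retroviral elements. ES cells kept with LIF hold a pluripotent state and can leave it towards primitive endoderm, a lineage that secretes large amounts of basement membrane protein. How such secretion, its supporting machinery, signalling and metabolism stood in the 2 libraries is described below, followed by the position of the genes on chromosomes.

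Trim28 itself measured 1051 RPKM in wild type against 37.2 RPKM in the knockout, 3.54% of the wild-type level. Differences are given as log2((knockout RPKM + 1)/(wild-type RPKM + 1)), called the log2 ratio, and "higher" and "lower" below mean by at least 2-fold on that scale. By this rule 1508 genes were higher (12.5% of those measured) and 382 lower (3.18%), and the median ratio was 0.08. With 1 library per side no test was possible, and these calls describe sizes only. Of the genes called higher, 608 were under 1 RPKM in wild type and were measured only through the knockout, a route that favours high ratios. Among the 10820 genes at 1 RPKM or more in wild type, 900 were higher, or 8.32%, and for most lists below the count is also given on that base. The share of higher genes also depended on level: it was 18.1% below a mean of 3 RPKM, 14.9% from 3 to 10, 9.09% from 10 to 30, and 6.36% at 30 RPKM or more. The median log2 ratio fell from 0.31 below a mean of 3 RPKM to -0.16 at 30 RPKM or more. Just inside the limit of 1 RPKM lay AI747699 and Dennd4a, and just outside it Tnfrsf18 and Macrod2. Pskh1 (log2 ratio 1.00012) and Fam160a1 (1.00315) were just inside 2-fold higher, Hmgcll1 (0.99945) and C1galt1 (0.99803) just outside.

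Marker genes were read first, as a check of the labelled cell type. Pou5f1, the defining transcription factor of ES cells, stood at 820 RPKM in wild type and 494 in the knockout, and Nanog at 66.1 and 25.03. All 14 ES markers were measured in both libraries, and 6 were at least 2-fold lower. Of 20 primitive endoderm markers 19 were measured and 19 were higher, and their summed level was 252 RPKM in wild type and 2435 in the knockout. Of these 19, 11 were under 1 RPKM in wild type and measured only through the knockout. The 8 at 1 RPKM or more in wild type were all higher. Afp, an endoderm gene, had 0 and 0.0535 RPKM. Of 8 measured trophectoderm markers 6 were higher, 4 of them under 1 RPKM in wild type. Of the 3 at 1 RPKM or more in wild type 2 were higher. The sum over the 8 was 20.4 RPKM in wild type and 373 in the knockout. Most of the latter came from the keratins Krt8 (179 RPKM) and Krt18 (164 RPKM). Tpbpa was listed at 0 in both libraries. Of 9 endothelial markers 5 were higher and 1 was lower, with a summed level of 25.4 RPKM in wild type and 42.2 in the knockout. Of the 5 higher ones, 3 were under 1 RPKM in wild type, and among the 5 at 1 RPKM or more in wild type 2 were higher. Among 5 measured fibroblast markers 3 were higher, all 3 measured only through the knockout, and 0 of the 2 at 1 RPKM or more in wild type. The fibroblast sum was 179 and 158 RPKM. Of the 9 erythroid markers listed 3 had no deposited row, and the other 6 were under the limit of 1 RPKM. Of the macrophage and leukocyte list only Laptm5 (149.6 and 65.0 RPKM) and Cd68 (23.1 and 25.1 RPKM) were measured, and 2 of its 10 genes had no row. The defining genes Ptprc, Csf1r and Aif1 of that list were at 0 in wild type and at 0.0107, 0.451 and 0.213 RPKM in the knockout. Of 5 neural markers 1 was higher and 1 lower. The part of these marker genes' cells in the values below was not tested. In bulk RNA, fewer cells of a type and less RNA per cell cannot be told apart.

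Serpins had the highest median of the 10 lists of secreted and extracellular proteins, followed by other extracellular protease inhibitors. The serpins were taken by symbol, whether or not each member inhibits an extracellular protease. Of 13 measured serpins 8 were higher and none lower. Their median log2 ratio was 1.74 against 0.08 over all measured genes, and 6 of the 9 at 1 RPKM or more in wild type were higher. Serpinh1 encodes HSP47, a chaperone that binds procollagen in the endoplasmic reticulum (ER). Its level was 6.82 RPKM in wild type against 177 in the knockout, a log2 ratio of 4.51. Serpine2, protease nexin 1, had 16.96 RPKM in wild type and 73.6 in the knockout. Serping1, which inhibits the first component of complement, stood at 9.48 and 34.1 RPKM. Serpinb9b (2.16 and 23.5 RPKM) and Serpina3m (0.186 and 4.43 RPKM) belong to families of close copies in the mouse, whose reads can be shared. Outside the serpins, 8 of 13 measured inhibitors were higher and none lower (median 1.58; 5 of 8 at 1 RPKM or more in wild type). They include cystatin C (Cst3), which blocks lysosomal cysteine proteases and stood at 51.0 RPKM in wild type and 305 in the knockout. Tissue factor pathway inhibitor (Tfpi) had 6.92 and 45.9 RPKM. The metalloprotease inhibitors Timp3, Timp2 and Timp1 had 0.566 and 9.30, 0.466 and 6.31, and 5.00 and 17.7 RPKM.

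Extracellular proteases had smaller shares of higher genes and lower medians than the serpins and the list of other inhibitors. Of 25 measured metalloproteases of the MMP, ADAM and ADAMTS families, 11 were higher and none lower (median 0.92), or 10 of 20 on the base of wild-type expression. Mmp14, a membrane-bound collagenase that activates other MMPs, stood at 4.31 RPKM in wild type and 23.3 in the knockout. Mmp15 had 1.24 and 10.2 RPKM, Mmp25 0.681 and 7.97, and Adam8 1.70 and 8.86. Of 20 secreted serine proteases and convertases 10 were higher and none lower (median 1.00), but only 4 of the 14 at 1 RPKM or more in wild type. The tissue-type plasminogen activator Plat went from 0.393 RPKM in wild type to 17.6 in the knockout. Bmp1, the procollagen C-proteinase, had 0.360 and 10.7 RPKM, and the convertase Furin 1.74 and 13.9. Mmp14, Bmp1 and Plau lie on chromosome 14, to which a later paragraph returns. Of 17 measured complement and coagulation genes 10 were higher and 1 was lower (median 1.48; 6 of 12 at 1 RPKM or more in wild type). Protein S (Pros1), an anticoagulant cofactor, had 6.52 and 42.3 RPKM, tissue factor (F3), the initiator of clotting, 3.20 and 21.02, and the thrombin receptor F2r 12.5 and 56.4. The list's lower gene was Vwf, von Willebrand factor, at 2.24 RPKM in wild type and 0.415 in the knockout.

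Proteoglycans and the enzymes that fold collagen also had medians near 2-fold. Serglycin (Srgn), the core proteoglycan of secretory granules, had the highest log2 ratio of the comparison after Col4a2 and Col4a1. Its level was 1.15 RPKM in wild type against 114.9 in the knockout, a log2 ratio of 5.75. Its flanking measured genes on chromosome 10, Vps26a (0.10) and 2510003E04Rik (0.16), had ratios near the median. Biglycan (Bgn) had 0.103 and 9.86 RPKM, syndecan 4 (Sdc4) 79.3 and 181, and the glypicans Gpc3 and Gpc4 9.80 and 24.5, and 8.30 and 25.5. In all, 10 of 18 measured proteoglycans were higher and none lower (median 1.08; 6 of 14 at 1 RPKM or more in wild type). Among enzymes that build or cut heparan sulfate and hyaluronan, 6 of 28 were higher (median 0.49; 3 of 17 at 1 RPKM or more in wild type). Hs3st1, a heparan sulfate 3-O-sulfotransferase, stood at 0.640 RPKM in wild type and 25.6 in the knockout, and the hyaluronan synthase Has2 at 0.284 and 4.92. Of 31 collagen folding and crosslinking genes 15 were higher and none lower (median 0.97; 12 of 25 at 1 RPKM or more in wild type). The prolyl 4-hydroxylases P4ha1 and P4ha2, which stabilise the triple helix, had 3.70 and 30.7, and 2.28 and 41.8 RPKM. The lysyl hydroxylase Plod2 had 4.00 and 36.2 RPKM, and the crosslinking enzyme Loxl2, on chromosome 14, 1.72 and 25.5. Creb3l1 and Creb3l2, membrane-bound transcription factors released by cleavage in the Golgi, had 2.97 and 28.6, and 0.685 and 15.2 RPKM.

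**Figure D1:**
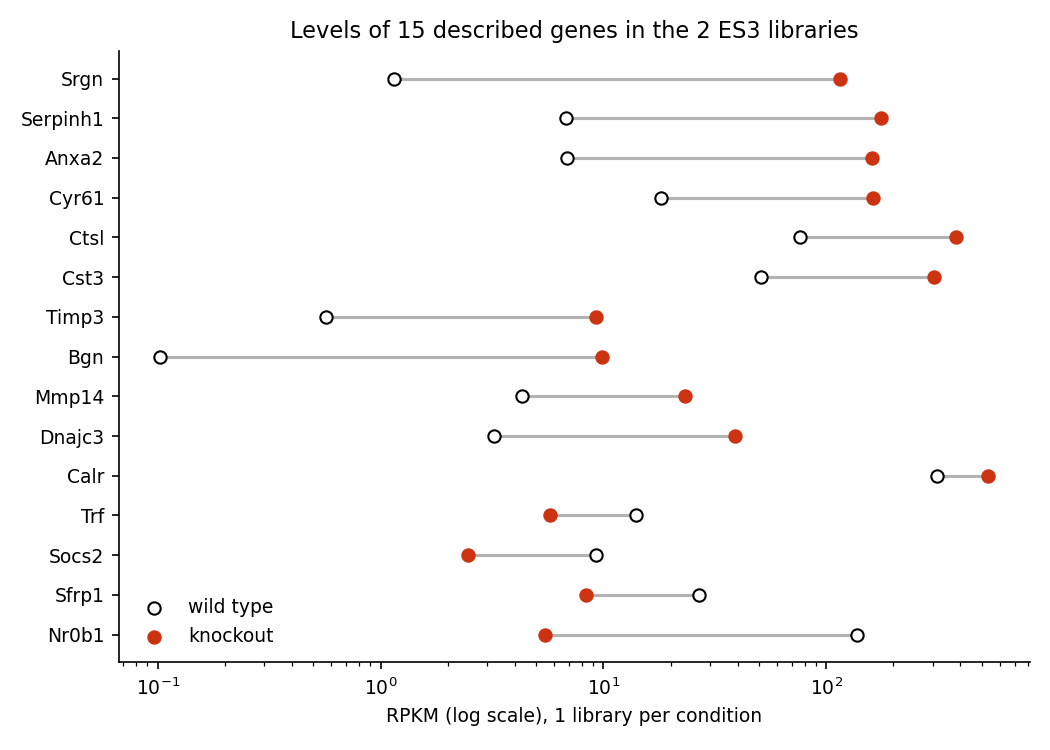
RPKM (log scale) of 15 genes described in the text, with open circles for the wild-type and filled circles for the knockout ES3 library, 1 library each. Srgn is drawn from 1.15 to 114.9 RPKM, and the lowest 4 genes of the plot, Trf, Socs2, Sfrp1 and Nr0b1, have the knockout on the left.

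Not every secreted family had a higher median. Of 25 measured chemokines, interleukins and receptors 6 were higher and 2 lower (median 0.35), but 1 of the 15 at 1 RPKM or more in wild type was higher. That gene was Cxcl16, a membrane-anchored chemokine, at 2.69 and 12.4 RPKM. Growth factors of the VEGF, PDGF, EGF and CCN families included 6 higher and 1 lower gene of 23 (median 0.11; 4 of 17 at 1 RPKM or more in wild type). The matricellular proteins Cyr61 and Ctgf had 18.1 and 161, and 48.5 and 125 RPKM, while Pdgfc was at 10.6 RPKM in wild type and 4.74 in the knockout. Secreted antagonists of WNT, BMP and Nodal differed among themselves, with 4 of 14 higher and 2 lower (median 0.39). At 1 RPKM or more in wild type 1 of 9 was higher. Bmper, a BMP-binding protein, stood at 0.0609 RPKM in wild type and 12.7 in the knockout, and Dkk1, a WNT antagonist, at 0.162 and 4.93. Sfrp1 and Notum, which also restrain WNT ligands, were lower, with 26.9 and 8.33, and 9.96 and 3.69 RPKM.

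The early secretory pathway had smaller but broadly positive ratios. Of 37 measured ER chaperones and unfolded protein response genes, 34 had a ratio above 0 and 7 were higher (7 of 36 at 1 RPKM or more in wild type), with a median of 0.67. Calreticulin (Calr), a calcium-binding lectin chaperone, stood at 312 RPKM in wild type and 533 in the knockout, and BiP (Hspa5), the main ER HSP70, at 95.9 and 153. The disulfide isomerases Pdia3 and Pdia6 had 109 and 240, and 61.6 and 128 RPKM. The stress-induced factors Atf4 (160 and 117 RPKM), Trib3 (16.6 and 9.94) and Chac1 (8.27 and 4.52) were the 3 with a ratio below 0. Dnajc3, a cochaperone that restrains the kinase PERK, had the highest ratio of the list, 3.25, at 3.22 and 39.1 RPKM, and it lies on chromosome 14 with Ero1l (3.34 and 14.02 RPKM). For the 43 measured genes of COPII vesicles and early traffic the median was 0.65, with 36 above 0 and 11 higher (10 of 42 at 1 RPKM or more in wild type). The KDEL receptors, which return ER proteins from the Golgi, were all in this group, with Kdelr3 at 11.8 and 48.5 RPKM, Kdelr1 at 20.96 and 54.9, and Kdelr2 at 18.4 and 46.2. Surf4, a cargo receptor, had 34.0 and 122.7 RPKM. Neither list had a member at least 2-fold lower. In the knockout fibroblasts of the same series, the medians of these lists were 0.01 and 0.05.

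Promoters were read because ER chaperone genes are known to share a sequence, the ER stress element, which reads CCAAT, then 9 bases of any kind, then CCACG. RefSeq windows of 300 bases on GRCm38.p6, from 250 bases before to 50 after the start, were matched for the 7604 measured genes with exactly 1 window. Searched on both strands, the element stood in 10 of 31 ER genes, in 16 of all 7604 (0.210%) and in 3 of the 904 higher genes with a window (0.332%). Across all 22862 single-window promoters of the reference table its share was 0.131%. The 10 ER genes that hold it had a median log2 ratio of 0.74 (0.07 to 3.25), and the 21 without it 0.67 (-0.75 to 1.79). These windows are on another build than the deposited mm9 coordinates. The stretches of 4 of the 10 genes are shown 5′ to 3′ on the gene's strand, with the element or its reverse complement in capitals. Dnajc3 and Pdia6 are shown because they were the only 2 of the 10 called higher, Calr and Hspa5 as the abundant chaperones.
Dnajc3 (chr14:118937807-118937865, + strand): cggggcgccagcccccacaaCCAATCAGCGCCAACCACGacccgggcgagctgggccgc
Pdia6 (chr12:17266471-17266529, + strand): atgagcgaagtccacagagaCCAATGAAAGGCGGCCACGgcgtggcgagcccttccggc
Calr (chr8:84847055-84847113, - strand): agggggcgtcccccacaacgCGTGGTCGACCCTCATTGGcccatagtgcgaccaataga
Hspa5 (chr2:34772005-34772063, + strand): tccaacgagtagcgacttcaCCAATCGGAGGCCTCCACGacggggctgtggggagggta
A match is a description of letters, not of binding. The letters TGACGTGG, the core of another element of the unfolded protein response, stood on either strand in 5 of 34 early traffic promoters (14.7%), in 0.789% of all measured ones and in 1.11% of the higher ones.

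Of 47 measured lysosomal genes 45 were above 0, 13 higher and none lower, at a median of 0.78 (11 of 43 at 1 RPKM or more in wild type). Without the 2 members on chromosome 14 the median was 0.53. The cysteine proteases led the list. Cathepsin L (Ctsl) stood at 75.9 RPKM in wild type and 381 in the knockout, legumain (Lgmn) at 27.3 and 209, cathepsin H (Ctsh) at 0.237 and 16.6, and cathepsin B (Ctsb, on chromosome 14) at 11.7 and 54.3. Of the 33 members with a single promoter window, 9 held TCACGTG on either strand, the core letters of the site read by the lysosomal regulator TFEB, or 27.3% against 6.33% of all measured genes and 3.43% of higher ones. The 9 had a median ratio of 0.53 and 1 was higher (Naglu, 0.707 and 3.83 RPKM), and the 24 others had a median of 0.48 with 7 higher, Ctsl among them. Vacuolar ATPase subunits, which acidify the lysosome, had a median of 0.41 with 2 of 18 higher. For the 47 proteasome subunits the median was 0.00. Its 3 higher members were parts of the immune-type proteasome: Psmb8 (0.0630 and 3.81 RPKM), Psmb9 (2.20 and 8.05) and Psme2 (2.99 and 15.2, on chromosome 14).

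At the cell surface, annexins and S100 proteins led, with 11 of 18 higher and none lower at a median of 1.34 (8 of 14 at 1 RPKM or more in wild type). Annexin A2, which binds membranes and plasminogen activators, stood at 6.87 RPKM in wild type and 160 in the knockout, and its partner S100a10 at 42.2 and 163. Anxa5 had 5.45 and 68.6 RPKM and Anxa1 0.166 and 16.7. Of 24 tetraspanins 8 were higher (median 0.82; 6 of 18 at 1 RPKM or more in wild type), among them Tspan9 (8.64 and 46.2 RPKM) and the endosomal Cd63 (50.5 and 143). Of 32 tight junction and gap junction genes 9 were higher and none lower (median 0.65; 8 of 30 at 1 RPKM or more in wild type). Claudin 6 (Cldn6) stood at 41.3 and 103 RPKM, and the connexin Gjb5 at 16.2 and 40.1. Integrins differed by subunit. The laminin and collagen receptor chains Itgb1 and Itga3 had 26.8 and 91.0, and 23.2 and 77.5 RPKM, while the leukocyte chains Itgb7 and Itgal were lower, at 12.6 and 2.98, and 2.53 and 0.489 RPKM. Among cadherins and catenins 7 of 21 were higher (median 0.72), but 2 of the 15 at 1 RPKM or more in wild type, and Epcam, an epithelial adhesion protein, stood at 73.3 and 144 RPKM, just under 2-fold on the log2 scale used (0.97).

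**Figure D2:**
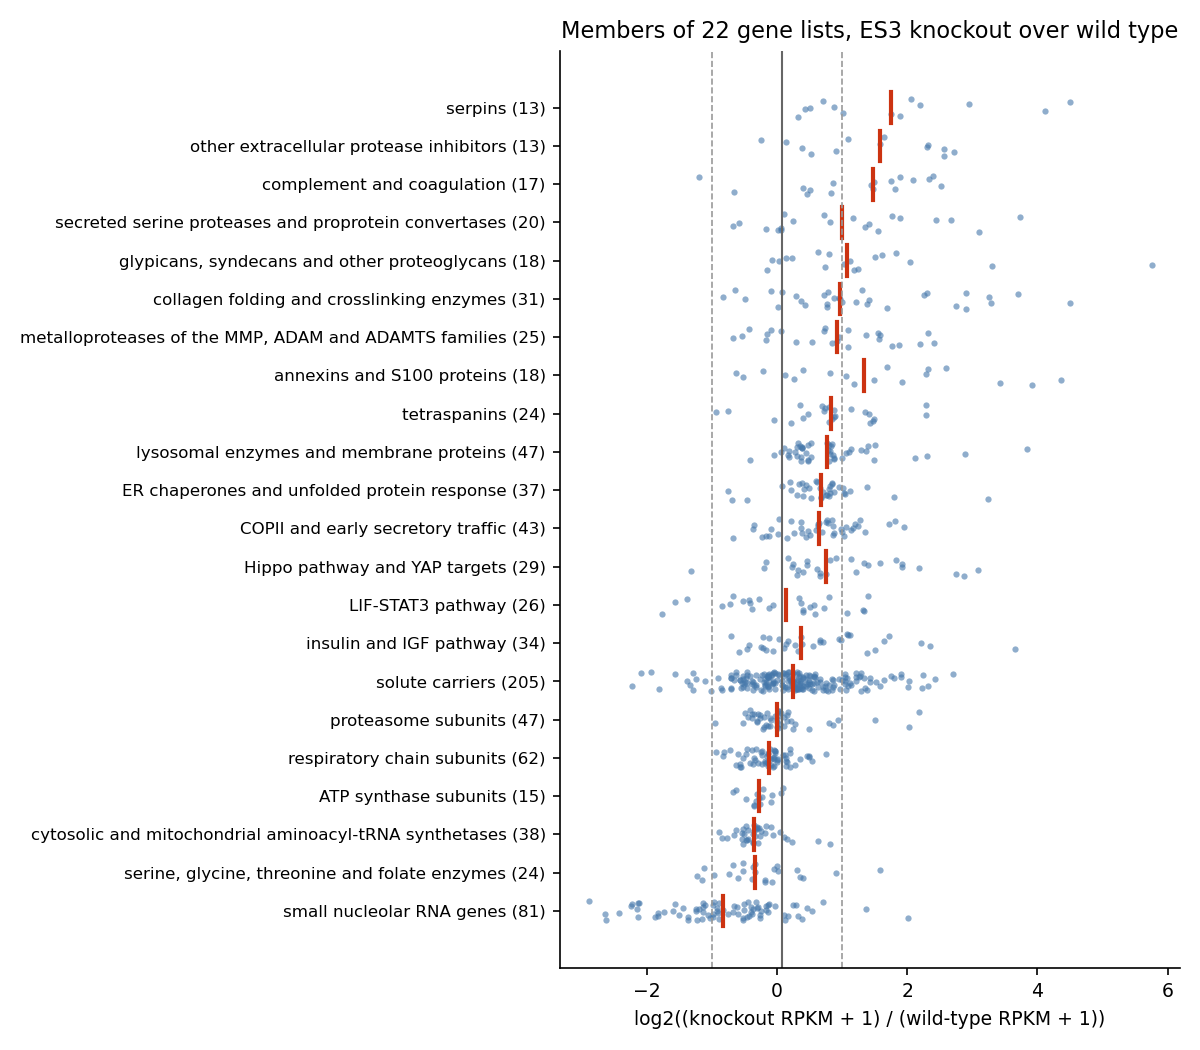
Log2 ratio (x axis) of every measured member of 22 gene lists (rows, number of members in parentheses), with 1 point per gene, a red bar at the list's median, a grey line at the median of all measured genes (0.08) and dashed lines at 2-fold. Serpins have their median at 1.74, respiratory chain subunits at -0.12 with no point beyond 2-fold, and small nucleolar RNA genes at -0.82.

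Signalling lists were mixed in direction. Of the 29 measured Hippo genes 12 were higher and 1 (Nf2, 67.7 and 26.5 RPKM) was lower, with a median of 0.76, and 10 of 27 at 1 RPKM or more in wild type were higher. The pathway restrains the coactivators YAP and TAZ. Wwtr1, which encodes TAZ, had 2.87 RPKM in wild type and 10.5 in the knockout, the targets Cyr61 and Axl 18.1 and 161, and 1.01 and 6.62, and the scaffold Amot 1.502 and 17.4. The kinase gene Lats2 (0.847 and 7.36 RPKM) lies on chromosome 14. In fibroblasts the same list had a median of -0.53. The list of FGF-MAPK feedback and immediate early genes had 6 of 28 higher and 2 lower (median 0.46), but 3 of 24 higher at 1 RPKM or more in wild type. Its higher members include the immediate early genes Atf3 (0.778 and 28.7 RPKM), Fos (4.57 and 38.5), Fosb (0.538 and 5.69) and Jun (4.69 and 21.95). The list also held 2 lower genes of FGF feedback or response, the inhibitor Spry4 (66.8 and 22.7 RPKM) and the ETS factor Etv4 (110 and 52.2).

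LIF acts through its receptor and JAK kinases on STAT3. The receptor Lifr was higher, at 6.18 RPKM in wild type and 17.8 in the knockout, and its chromosome 15 neighbour Osmr, a related receptor, stood at 0.0319 and 1.13. STAT3 itself had 10.0 and 9.19 RPKM and its feedback inhibitor Socs3 52.8 and 40.1. The targets Bcl3 (36.3 and 9.93 RPKM), Socs2 (9.28 and 2.47) and Pim3 (106 and 40.1) were lower, while Pim2, a kinase of the same family, was higher (20.96 and 54.4). In the list of 26 as a whole 4 were higher (15.4%, against 12.5% of all measured genes) and 3 lower, with a median of 0.14. At 1 RPKM or more in wild type 2 of 22 were higher. In the insulin and IGF list 10 of 34 were higher and none lower (median 0.38), of which 5 were under 1 RPKM in wild type. The growth factor Igf2 had 0.805 and 21.7 RPKM, the adaptor Grb10 0.908 and 8.68 and the substrate Irs2 5.06 and 18.0. Igfbp3 and Igfbp4, which hold IGF outside cells, had 4.09 and 15.8, and 1.90 and 12.4 RPKM.

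Nuclear receptors had a median of 0.00 and the widest range of any signalling list, with 3 of 22 higher and 5 lower. Nr0b1 (DAX1), a corepressor of the ES cell network, had the lowest ratio after Trim28, with 137 RPKM in wild type and 5.47 in the knockout (log2 ratio -4.42). Nr5a2, an orphan receptor that can activate Pou5f1, had 8.48 and 1.71 RPKM. The estrogen receptor Esr1 was at 0.00446 RPKM in wild type and 11.2 in the knockout. The retinoic acid receptors Rara (8.67 and 3.23 RPKM) and Rarg (44.8 and 19.0) were lower, with the binding protein Crabp1 (15.9 and 5.79), whereas Cyp26a1, which degrades retinoic acid, had 0.216 and 2.53 RPKM. In the retinoid list 3 of 18 were higher and 3 lower (median 0.37), with 0 of 14 higher at 1 RPKM or more in wild type. Of 16 ephrins and Eph receptors 4 were higher and none lower (median 0.57; 4 of 14 at 1 RPKM or more in wild type), with Efnb1 at 1.09 and 10.97 RPKM. Semaphorins, plexins and neuropilins had 7 of 20 higher and 2 lower, with a median of 0.80 that was 0.10 when transcript rows were summed and 0.00 among the 17 at 1 RPKM or more in wild type. In the Notch list 6 of 31 were higher and 1 was lower (median 0.21; 4 of 27 at 1 RPKM or more in wild type). In the NF-kappaB list 3 of 24 were higher (median 0.43), 12.5% as over all measured genes. At 1 RPKM or more in wild type it was 2 of 21, 9.52% against 8.32%. The higher genes included the receptors Ltbr (2.12 and 15.6 RPKM) and Tnfrsf1a (4.13 and 14.7).

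The subunits of oxidative phosphorylation had no call, while glycolysis and fatty acid oxidation had a few. None of the 62 genes in the respiratory chain list passed 2-fold in either direction (median -0.12, range -0.94 to 0.76); the list was built by symbol pattern and also holds Cox4nb, which is no subunit. Nor did any of the 15 ATP synthase subunits (median -0.27) or the 38 aminoacyl-tRNA synthetases (median -0.35). All measured genes at a mean of 30 RPKM or more had a median of -0.16. Of 27 genes of the pyruvate and citric acid cycle list only Me1, the malic enzyme that supplies NADPH, was higher, at 2.45 RPKM in wild type and 13.3 in the knockout. Of 31 glycolysis and lactate export genes 4 were higher and none lower (median 0.13), a share of 12.9%, near that of all measured genes. These were the muscle-type phosphoglycerate mutase Pgam2 (1.17 and 12.7 RPKM), the lactate exporter Slc16a3 (9.05 and 22.4), Eno2 (1.12 and 3.78) and Pdk2 (2.84 and 6.83). The glucose transporters Slc2a1 and Slc2a3 had 241 and 417, and 220 and 397 RPKM, under 2-fold, and Pkm2 stood at 1641 and 953. In fibroblasts the respiratory chain list had a median of 0.70, with 7 of 62 higher against 0.981% of the 10805 genes measured there.

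One-carbon genes had a median below 0, as had all measured genes at a mean of 30 RPKM or more (-0.16). Amino acid genes had calls in both directions. The serine, glycine, threonine and folate list had a median of -0.34, with 3 of 24 lower and 1 higher. The lower ones were Gldc, the decarboxylase of the glycine cleavage system (88.9 RPKM in wild type and 37.3 in the knockout), Gcat (26.2 and 11.3) and Shmt1 (96.1 and 43.9). Threonine dehydrogenase (Tdh), on which mouse ES cells are known to rely, stood at 106 and 73.8 RPKM, and it lies on chromosome 14. Of 33 amino acid and polyamine enzymes 6 were higher and 3 lower (median -0.19, and 4 of 31 higher at 1 RPKM or more in wild type). The higher ones include Sat1, which acetylates polyamines (7.16 and 26.5 RPKM), the creatine kinase Ckmt1 (8.26 and 29.2) and Oat (14.1 and 37.3). Cth, Ass1 and Bcat2 were lower, with 75.6 and 31.5, 193 and 90.5, and 188 and 89.1 RPKM. The higher member of the serine and folate list, Aldh1l1, a folate dehydrogenase, had 1.47 and 6.42 RPKM. Metallothioneins, which bind zinc and copper, were lower as a chromosome 8 cluster. Mt1 stood at 855 RPKM in wild type and 389 in the knockout, Mt2 at 764 and 360, Mt3 at 15.5 and 5.99 and Mt4 at 8.45 and 2.18. The plasma iron carrier transferrin (Trf) had 13.9 and 5.76 RPKM, and the iron exporter Slc40a1 0.936 and 5.05.

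Lipid genes were among the metabolic genes with the highest ratios. Alox15, a lipoxygenase that oxidises arachidonic acid, stood at 0.160 RPKM in wild type and 49.1 in the knockout (5.43), with its neighbour Alox12e at 0.0334 and 1.24 and the gene on its other side, Pelp1, at 74.9 and 52.7. The prostaglandin synthases Ptgs2 and Ptges had 0.223 and 4.09, and 2.20 and 19.7 RPKM, and Slco2a1, a prostaglandin transporter, 1.01 and 24.4. The eicosanoid list had 6 of 18 higher and none lower (3 of 13 at 1 RPKM or more in wild type). Plin2, a coat protein of lipid droplets, stood at 13.1 and 71.1 RPKM, Fabp5 and Fabp3, fatty acid carriers, at 9.42 and 35.7, and 147 and 422. Of 27 fatty acid oxidation genes 5 were higher and none lower (median 0.20), among them the acyl-CoA oxidase Acox3 (4.32 and 12.97 RPKM). The thioesterases Acot1 and Acot2 in that list had 1.96 and 18.2, and 2.09 and 10.5 RPKM; they are near-identical copies on chromosome 12 whose reads can be shared. Cholesterol synthesis had 1 of 25 higher (Ebp, 11.6 and 24.6 RPKM) and a median of -0.10. Among antioxidant genes the secreted peroxidase Gpx3 had 2.28 and 103 RPKM (4.99), and the mitochondrial superoxide dismutase Sod2 92.8 and 24.7 (-1.87). Of 205 measured solute carriers 35 were higher and 12 lower (median 0.24), with 22 of 180 higher at 1 RPKM or more in wild type. The extremes were Slc34a2, a phosphate carrier (0.0184 and 5.64 RPKM), and Slc11a1, a divalent metal carrier (5.76 and 0.453).

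Small nucleolar RNA (snoRNA) genes had the lowest median of the 54 lists other than cell type markers, -0.82, with 31 of 81 lower and 2 higher. These RNAs guide modification of ribosomal RNA and most are cut from introns of host genes. Among 41 C/D box genes 18 were lower, and 11 of the 41 were listed at 0 in the knockout against 1 at 0 in wild type. A gene at 0 in the knockout is measured only through wild type, and the rule then always calls it lower. Of the whole list of 81, 15 were at 0 in the knockout. Over all measured genes 3.18% were lower. Of 27 H/ACA box genes 9 were lower. Snord32a stood at 38.0 RPKM in wild type and 7.86 in the knockout, and Snord82 at 11.3 and 1.64. Of the 13 others in the list, 4 were lower, among them the host transcripts Gas5 (110 and 46.8 RPKM) and Snhg6 (138 and 63.4). snoRNA transcripts are short, and 1 read is worth more RPKM there than on a long one. Their part in the total RNA depends on size selection of the library, whose part in these values was not tested.

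Rows of the table stand for RefSeq transcripts, and 2093 symbols had at least 2 measured rows. The rows of 15 symbols differed by 1 or more in log2 ratio, and no symbol had one row called higher and another lower. In 11 of the 15 the rows belong to different reference genes under 1 deposited symbol. Under Eif4a2, for example, the mRNA rows had ratios of 0.06, 0.01 and -0.11 and the row of Snord2, encoded in its intron, -1.81. In the other 4 the rows are transcripts of 1 gene. Of 10 tropomyosin 1 (Tpm1) transcripts all were higher, from 1.27 to 2.48. Polr1d, a polymerase subunit gene, had transcripts at 51.0 and 28.8 RPKM (-0.81) and at 45.4 and 65.9 (0.53). No source used here says how reads shared by transcripts were counted.

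The miR-290 cluster, a miRNA gene group known for its abundance in mouse ES cells, was lower along its length. The mature 3p strands of 6 of its 7 hairpins, as RefSeq gives them (GRCm38.p6), are shown because they share letters in the seed. The seed is bases 2 to 8, in capitals. The strand of Mir292 was left out.
miR-290a-3p: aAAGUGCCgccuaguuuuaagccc
miR-291a-3p: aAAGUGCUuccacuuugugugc
miR-291b-3p: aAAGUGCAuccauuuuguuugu
miR-293-3p: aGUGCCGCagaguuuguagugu
miR-294-3p: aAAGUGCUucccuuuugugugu
miR-295-3p: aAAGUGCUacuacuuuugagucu
The seed AAGUGCU is shared by 3 of these 6, and AAGUGC stands in the seeds of 5. In the deposited mm9 coordinates the hairpins run from 3218627 to 3220842 on chromosome 7. The RPKM there are reads of an mRNA library over the hairpin's position, and say nothing of mature miRNA. All 7 hairpin rows were lower, with ratios from -1.88 to -1.18 and a summed level of 49.0 RPKM in wild type and 10.9 in the knockout. Mir295 had 15.6 and 3.51 RPKM, Mir291b 12.7 and 3.53, Mir293 6.26 and 1.16, Mir291a 5.64 and 1.14, and Mir294 4.13 and 0.892. The transcript D7Ertd143e, which overlaps the cluster, had 41.8 and 12.5 RPKM, and AU018091, the nearest measured gene before it, 42.1 and 17.1. Together they make a run of 9 consecutive measured symbols (8 Ensembl genes), the longest among lower runs. Its 7 hairpin rows belong to 1 cluster that D7Ertd143e overlaps, so the 9 are not separate loci. Of the 31 other miRNA rows at 1 RPKM or more, 12 were higher and 6 lower, where 12.5% and 3.18% of all measured genes were. A row at 0 in 1 library and measured through the other is called by the rule alone. Among all 38 miRNA rows, 8 were at 0 in wild type and 6 at 0 in the knockout, so these counts describe few reads. Mir20a and Mir19b-1 of the miR-17 cluster, on chromosome 14, were at 0 in wild type and had 2.09 and 1.29 RPKM in the knockout, and their host Mir17hg had 4.198 and 7.72.
miR-20a-5p: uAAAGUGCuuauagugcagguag
Its seed AAAGUGC holds the same letters AAGUGC, shifted by a base from those of the miR-290 strands.

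Genes close on a chromosome were alike more often than genes at large. For 766 higher genes with another measured gene start within 50 kb, the nearest such gene was also higher in 184, or 24.0% (95% Wilson interval 21.1 to 27.2, which covers counting error only), against 9.33% over all 7923 genes with such a neighbour. For lower genes, 67 of 261 neighbours were lower, 25.7% against 3.29%. For higher genes, leaving out overlapping genes gave 22.4% against 9.52%, and leaving out pairs with a shared symbol stem 21.5% against 9.03%. For lower genes the same steps gave 26.4% against 3.25% and 22.4% against 3.06%. A stem had to be longer than a few letters before the first digit. Pairs with shorter ones, such as Mt1 and Mt2, Ly6a and Ly6c1 or the Gm genes, were therefore kept, and family copies were only partly left out. The pairs are not independent, since a pair of mutual neighbours counts from both sides.

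Runs of 3 or more consecutive measured genes called the same way numbered 73, of which 65 were higher and 8 lower. The highest median belonged to Irs2, Col4a1 and Col4a2 on chromosome 8. Col4a1 and Col4a2, the basement membrane collagen IV chains, are transcribed away from each other, and on GRCm38.p6 their first bases, 11312826 and 11312805, leave 22 bases in common. They stood at 5.52 and 409, and 2.83 and 257 RPKM, and the measured gene on the far side, Rab20, at 2.03 and 4.50. The keratin run of Krt7, Krt8 and Krt18 on chromosome 15 followed, with Krt7 at 0.841 and 7.86 RPKM. Gsn, Stom and Ggta1 on chromosome 2 had 3.45 and 66.9, 3.36 and 9.72, and 3.12 and 17.6 RPKM; Gsn encodes gelsolin, which severs actin filaments. A run of 6 on chromosome 17 joined antigen processing genes of the major histocompatibility complex: Psmb9, Tap1 (1.30 and 15.6 RPKM), Psmb8, Tap2 (0.598 and 4.12), H2-Ab1 (0.0646 and 2.45) and H2-Eb1 (0.508 and 10.97). Ly6 surface proteins made a run of 5 on chromosome 15, led by Ly6a (0.183 and 12.3 RPKM), which overlaps Ly6c1 in the deposited coordinates. The Zscan4 run on chromosome 7 (Zscan4c, Zscan4d and Zscan4f at 6.66, 6.499 and 8.11 RPKM in the knockout) and a run of 10 Pramef-type genes on chromosome 4 consist of close copies, so their counts are uncertain. Of the lower runs, Tcfcp2l1, Gli2 and Inhbb on chromosome 1 had the lowest median, with 70.9 and 27.3, 19.2 and 3.93, and 9.92 and 1.09 RPKM. Tcfcp2l1 is a factor of the ES cell network, Gli2 an effector of hedgehog signalling and Inhbb an activin subunit. Aire, Dnmt3l and Icosl on chromosome 10 formed another, in which Dnmt3l, a cofactor of DNA methylation, had 286 and 93.3 RPKM.

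Chromosome 14 stood apart from all others. Of its 409 measured genes 114 were higher, 27.9%, and the median log2 ratio was 0.59. On the other chromosomes the share ranged from 8.78% to 16.7% and the median from -0.07 to 0.27. Smaller stretches there varied more. Bins of 5 Mb with 10 or more measured genes had medians from -0.64 to 1.31 (5th to 95th percentile -0.21 to 0.52). On chromosome 14 the pattern went by segments, whose limits were set after seeing the values, in mm9 coordinates. From 20 to 35 Mb the median of 86 genes was 0.13, with 8 higher. From 35 to 75 Mb 206 of 223 genes had a ratio above 0, 74 were higher and the median was 0.76. From 75 to 90 Mb the sign turned: 26 of 30 genes were at or below 0 and the median was -0.66. Gm10845 (3.52 and 41.5 RPKM) was higher, and 8 genes were lower. These include Enox1 (28.8 and 4.45 RPKM), Tsc22d1 (110 and 52.2), which encodes a transcriptional regulator, and Sugt1 (71.4 and 35.0), a cochaperone of HSP90. From 115 Mb to the end all 26 genes were above 0 and 24 were higher, with a median of 1.81.

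The last of these segments held the longest run of higher genes, 15 in 2708 kb from Mbnl2 to Tmtc4, with no measured gene between them that was not higher. Mbnl2, a splicing regulator, had 1.95 RPKM in wild type and 23.4 in the knockout, Rap2a, a small GTPase, 2.70 and 30.6, and Ipo5, a nuclear import receptor, 107 and 361. Tm9sf2, a transmembrane protein of endosomes, had 10.9 and 82.5 RPKM, Stk24, a kinase, 7.42 and 37.0, and the mitochondrial enzyme genes Pcca and Clybl 3.05 and 12.8, and 2.70 and 14.2. The zinc finger factors Zic2 and Zic5 had 3.07 and 23.5, and 0.933 and 3.40 RPKM. A second run of 9, ahead of it, reached from Mir19b-1 to Uggt2 and included Gpr180 (3.67 and 18.5 RPKM), Abcc4 (3.44 and 14.9) and Dnajc3. In fibroblasts the 18 genes of the segment that were measured there had a median of -0.20, and Mbnl2 stood at -1.49.

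H3K9me3 was mapped by chromatin immunoprecipitation in ES3 cells of both conditions, with 37002 regions called in wild type and 37221 in the knockout. On chromosome 14 there were 1572 and 3196, so that its share of all regions was 4.25% and 8.59%. The same segments were compared, with wild type first. From 115 Mb to the end 48 regions were called in wild type and 706 in the knockout, from 35 to 75 Mb 284 and 1174, from 20 to 35 Mb 180 and 185, and from 75 to 90 Mb 347 and 95. Below 20 Mb the regions numbered 344 and 348 although the 22 genes there had a median log2 ratio of 0.52, and from 90 to 115 Mb they numbered 369 and 688 where 22 genes had a median of 0.27. Chromosome 6 also had more regions in the knockout, 1864 and 3901, through its part beyond 85 Mb (782 and 3109), but the 293 genes there had a median log2 ratio of 0.15 with 12.3% higher. Chromosome 1 had fewer, 3918 and 2285. Its 186 genes below 70 Mb had a median of 0.32 and its 476 genes beyond a median of -0.15. On the 17 other chromosomes the number in the knockout was 0.72 to 1.08 times that in wild type. The regions carry no score or depth and each list is 1 call. DNA copy number was not measured in the files used here, and its part in the RNA values or region counts of these chromosomes was not tested. Without chromosome 14 the count of higher genes was 1394 of 11615 (12.0%), and the list medians that moved most were those of lysosomal genes (0.78 to 0.53) and secreted serine proteases (1.00 to 0.77).

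**Figure D3:**
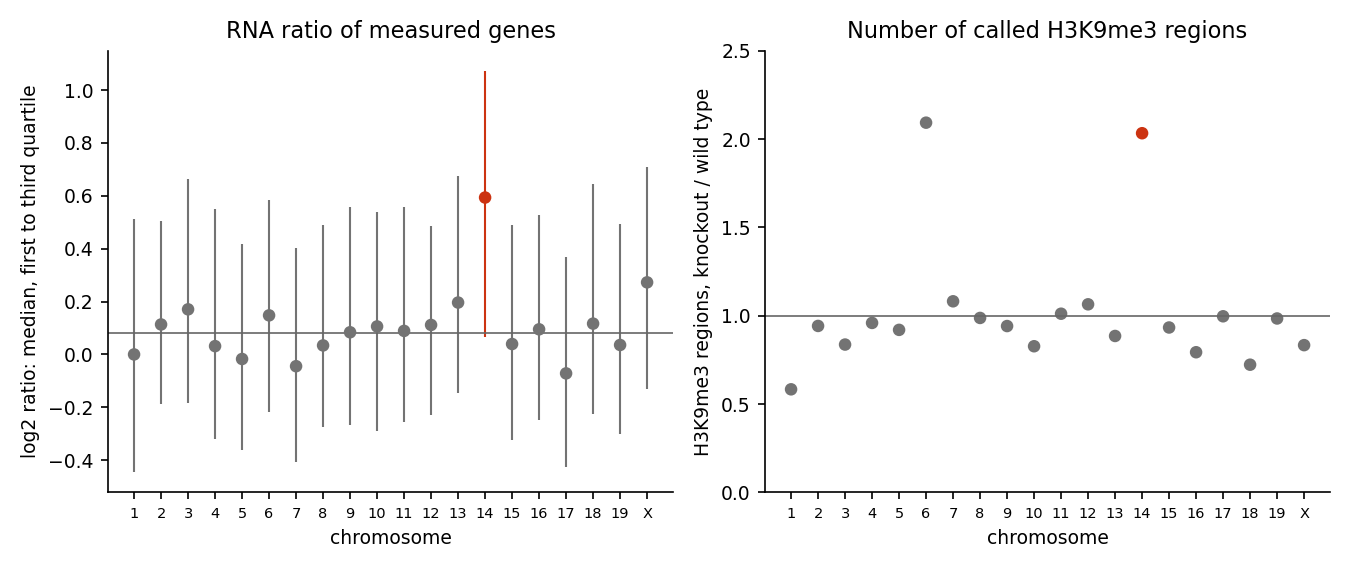
Left, median (point) and interquartile range (line) of the log2 ratio of measured genes on each chromosome, with a grey line at the median of all genes (0.08). Right, the number of H3K9me3 regions called in the knockout divided by that in wild type. Chromosome 14, in red, has a median of 0.59 on the left and a quotient of 2.03 on the right, where chromosomes 6 and 1 also lie apart, at 2.09 and 0.58.

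**Figure D4:**
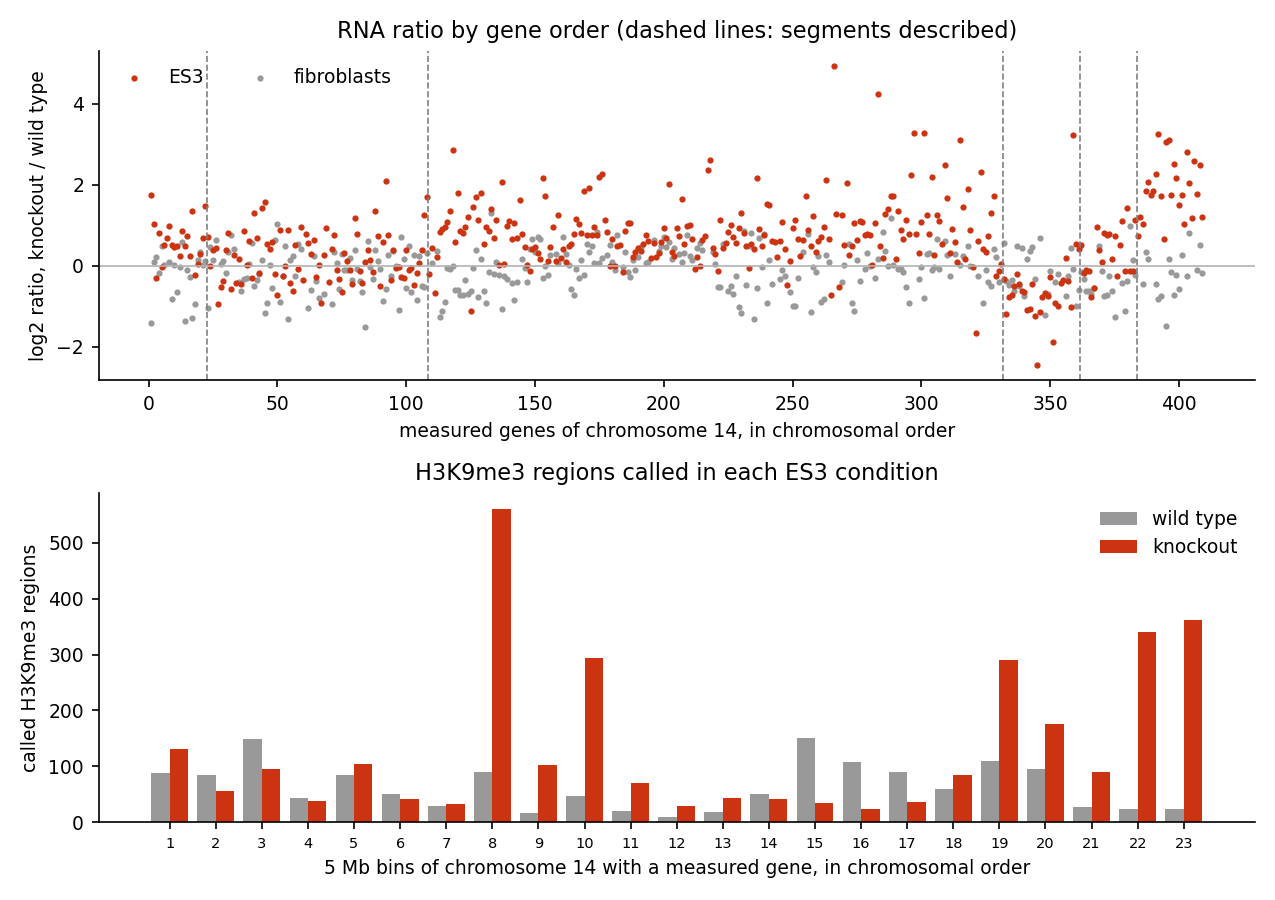
Top, log2 ratio of the 409 measured genes of chromosome 14 in chromosomal order in ES3 cells (red) and in fibroblasts where measured (grey), with dashed lines between the segments described. Bottom, H3K9me3 regions called in wild-type (grey) and knockout (red) ES3 cells in 5 Mb bins that hold a measured gene. The last 2 bins have 23 and 340, and 23 and 361 regions, and the genes there have ratios above 0.

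CpG dinucleotides were counted in the 7604 single promoter windows described above, since CpG-poor promoters are typical of tissue-restricted genes. Of 643 genes with 0 to 6 CpG in 300 bases, 23.6% were higher and 6.07% lower. With 7 to 20 CpG the shares were 11.7% and 2.85% of 2873 genes, and with 21 or more 10.2% and 2.01% of 4088. Levels differed as well, with median wild-type RPKM of 2.08, 8.15 and 10.4 in the 3 classes. Within genes of similar mean level the CpG-poor class still had the largest share of higher genes: 24.5% against 16.6% for the CpG-rich class below 3 RPKM, 25.5% against 12.7% from 3 to 10, 13.4% against 7.73% from 10 to 30, and 24.3% against 5.29% at 30 RPKM or more. That last comparison rests on 37 CpG-poor genes. The CpG-poor class also had the largest share of lower genes at each level. Against the CpG-rich class it was 2.95% to 0.572% below 3 RPKM and 13.4% to 2.34% from 10 to 30. At 30 RPKM or more it was 5.41% to 3.41%. From 10 to 30 RPKM the CpG-poor class thus had equal shares of higher and lower genes. Among all measured genes 7.11% held TATAAA on either strand, against 10.5% of higher and 8.87% of lower genes. The letters AGATAA, the core that GATA factors read, stood in 5.62% of all and 5.09% of higher genes.

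**Figure D5:**
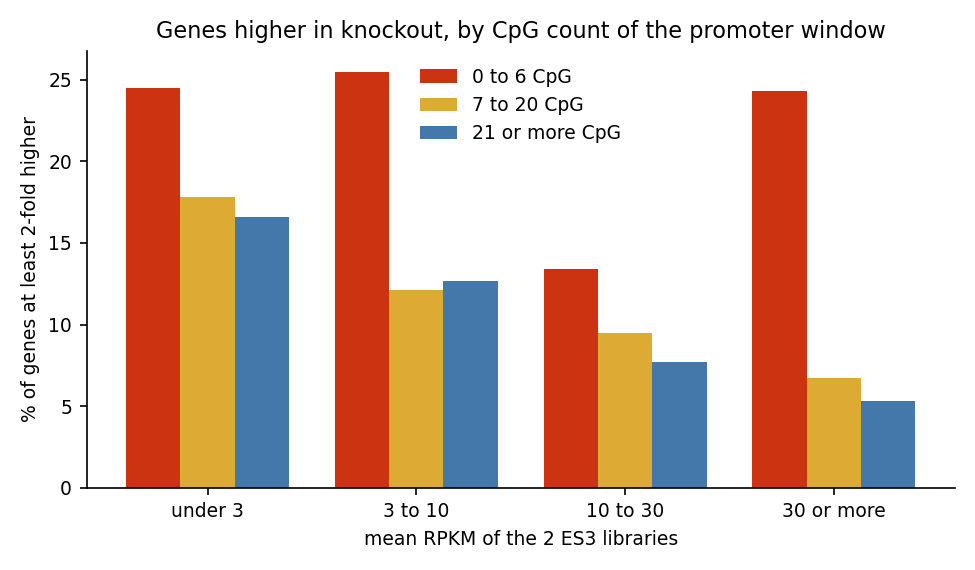
Share of genes at least 2-fold higher in knockout ES3 cells (y axis, percent) by mean RPKM of both libraries (groups of bars) and by the number of CpG in the promoter window (colours). The bars for 0 to 6 CpG are the tallest in each group, from 13.4% to 25.5%.

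The 12 largest ratios outside the cell type markers were Srgn, Tagln, Alox15, Gpx3, Cthrc1, Cryab, Cd209c, 4933409K07Rik, Nxf7, Serpinh1, Zfp575 and Tinagl1. Tagln, an actin-binding protein of smooth muscle, stood at 1.02 RPKM in wild type and 100 in the knockout, with its neighbours Pcsk7 at 7.78 and 9.40 and Sidt2 at 13.5 and 35.1. Cthrc1, a secreted glycoprotein, had 1.52 and 78.4 RPKM, the small heat shock protein Cryab 1.36 and 65.4, and Tinagl1, a matrix protein, 0.394 and 29.1. The smallest after Nr0b1 were Cobl, an actin nucleator (29.4 and 1.54 RPKM), Gm216 (12.4 and 0.323), Gpa33, a surface antigen (92.2 and 9.07), Krt42 (31.0 and 2.67), Nkx6-3 (9.82 and 0.383) and Snord43, listed at 0 in the knockout. None of these genes reached 2-fold in fibroblasts with Trim28 removed, several of them being at 0 there. In that comparison 0.981% of measured genes were higher and 4.84% lower, and Trim28 had 62.8 RPKM in wild type and 5.84 in the knockout.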

How the data were processed

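The authors deposited RPKM per RefSeq transcript, from reads placed with Bowtie on mm9 per the submitters' processing notes; no source used here names the counter or the depth. The deposited ratio column equals the quotient of the RPKM columns and was only checked. H3K9me3 regions were deposited without scores. The row with the highest mean was kept per symbol, with a pseudocount of 1 RPKM and a minimum of 1 RPKM in either library. Of 22631 rows, 22110 matched a GRCm38.p6 gene table used for names, 780 had no symbol and 350 carried a symbol unknown for their transcript there. RPKM summed to 318250 in wild type and 306318 in the knockout. There were 62 gene lists. Named genes are Trim28, the 12 largest and 8 smallest ratios outside marker lists, up to 6 members per list by absolute ratio, the 12 runs with the highest median, 8 symbols with diverging rows, neighbours of the 6 largest ratios and genes at the limits; others past 2-fold, and those given as references (Pou5f1, Stat3, Socs3, Tdh, Osmr, Calr, Hspa5 and the like), were chosen after their values were seen. Members and lists were chosen with earlier results of these data known. Some named genes are not reported here. The neighbour and run procedures were tested on simulated data. Python 3.11.15, pandas 2.3.3, numpy 2.4.6 and scipy 1.17.1 were used.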

Additional observations from a re-analysis of the deposited data

Results flagged for a closer look

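For 12 of the 327 named genes measured in both cell types, the knockout differed from wild type by at least 2-fold in opposite directions in ES3 cells and fibroblasts. Another 4 were higher in both, among them Twist2, Pgls and Ly6c1, and 3 lower in both (Trim28, Snord110 and Snord37). Each cell type has 1 library per condition, of day 4 for ES3 cells and day 5 for fibroblasts, and the difference between cell types was not tested. Of the 327, 223 were higher in ES3 cells and 32 lower, and 2 of the 32 were higher in fibroblasts. Of the 223, 10 were lower in fibroblasts, a share near the 4.84% of all genes measured there. These were Esr1 (3.60 and -1.16), Mbnl2 (3.05 and -1.49), Crim1 (2.75 and -1.21), a transmembrane protein that binds BMPs, and the hyaluronan synthase Has2 (2.21 and -1.09). Clcn5, a chloride transporter of endosomes, had 2.18 and -1.74, and the cyclooxygenase Ptgs2 2.06 and -1.20. The ligand Nrg1 had 2.02 and -1.01, the integrin chain Itgav 1.59 and -1.52, the semaphorin receptor Plxna1 1.26 and -1.20, and the glucocorticoid receptor Nr3c1 1.24 and -1.01. The metallothioneins Mt1 (-1.14 and 1.05) and Mt2 (-1.08 and 1.13) went the other way. In fibroblasts 4.84% of measured genes were at least 2-fold lower and 0.981% higher.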

How the results depend on the processing

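Counts moved with the scale. The 1508 higher genes became 595 at 3-fold, 538 with a pseudocount of 5 RPKM and 967 with a filter at 5 RPKM. The 382 lower genes became 111, 164 and, with a pseudocount of 0.1 RPKM, 601. The share of higher neighbours, 24.0%, was 20.1% at 3-fold, 27.4% and 15.1% with pseudocounts of 0.1 and 5 RPKM, and 17.9% with no filter, against 3.40%, 13.6%, 3.37% and 7.25% over all pairs. Centring on the median, summing transcript rows and leaving out chromosome 14 (an alternative chosen after seeing the data) kept the counts within 1.5 times and the share within its interval, as did windows of 20 and 100 kb. Of 438 named genes, 132 crossed 2-fold with a pseudocount of 5 RPKM and 16 with 0.1, and no call changed sign. With no filter the medians were lower for serpins (1.74 to 0.07), other protease inhibitors (1.58 to 0.23), complement (1.48 to 0.15), annexins (1.34 to 0.60), proteoglycans (1.08 to 0.26), serine proteases (1.00 to 0.33), metalloproteases (0.92 to 0.07), tight junctions (0.65 to 0.13) and semaphorins (0.80 to 0.04), so those medians describe measured members only. Summing transcript rows took the semaphorin median to 0.10. Depth is unknown, so the precision of low values cannot be given. No paired analysis was possible because each condition has 1 library.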
